A study of Bos taurus with 9 samples.

Results

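RBP4, CRABP1 and CRABP2 encode proteins that carry vitamin A compounds. They are described here in abdominal adipose tissue, subcutaneous adipose tissue and longissimus dorsi muscle of cattle. Every probe set annotated with exactly 1 of these 3 symbols was taken, which gave 3 of the 24016 probe sets tested, 1 for each gene among 9155 genes with 1 symbol.

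The samples came from male Yan yellow cattle aged 24 months, a breed of beef cattle. The animals were raised under the same conditions and sampled at slaughter. There were 3 arrays of abdominal adipose tissue, 3 of subcutaneous adipose tissue and 3 of longissimus dorsi muscle, the skeletal muscle along the back. The labels mention 9 bulls and do not tie a sample to an animal, so the p-values measure only the spread between these samples, which may be technical. The labels name no treatment. All groups were whole tissue, so fewer cells of a type and less RNA per cell cannot be told apart. Levels are log2-transformed intensities from 1-colour Affymetrix bovine arrays, with 1 deposited intensity per probe set, and differences are on the same scale. The number of arrays limits the precision.

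Retinol, the alcohol form of vitamin A, travels in blood bound to RBP4, a protein of the lipocalin family that circulates with transthyretin. The liver is its main source, and adipocytes make and secrete it too, which is why it is also counted among the adipokines. Inside cells retinol is oxidised to retinal and then to retinoic acid, which switches genes on and off through nuclear receptors. CRABP1 and CRABP2 bind retinoic acid in the cytoplasm and belong to the same family of small intracellular proteins as the fatty acid binding proteins. In mouse and human cells CRABP2 hands retinoic acid to its nuclear receptor, while CRABP1 is linked to its retention and breakdown in the cytoplasm.

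The 9 arrays had similar distributions, with median log2 values of 5.89 to 5.90 on the abdominal, 5.88 to 5.92 on the subcutaneous and 5.75 to 5.79 on the muscle arrays. Depending on the array, 46.1% to 49.0% of probe sets read over 6 on the log2 scale, and tissue means below 6 are called near background. The tissues carried their own markers. All 6 measured adipocyte markers were higher and all 6 skeletal muscle markers lower in adipose tissue, the mean of both depots, than in muscle, with median differences of 3.94 and -7.99. The ratio of 3' to 5' signal of the GAPDH control probe sets, a measure of RNA integrity, was 1.26 to 1.62 on the abdominal arrays, 1.21 to 1.74 on the subcutaneous arrays and 0.937 to 1.01 on the muscle arrays. This ratio moved with every difference between fat and muscle below, and its part in them was not tested.

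**Figure D1:**
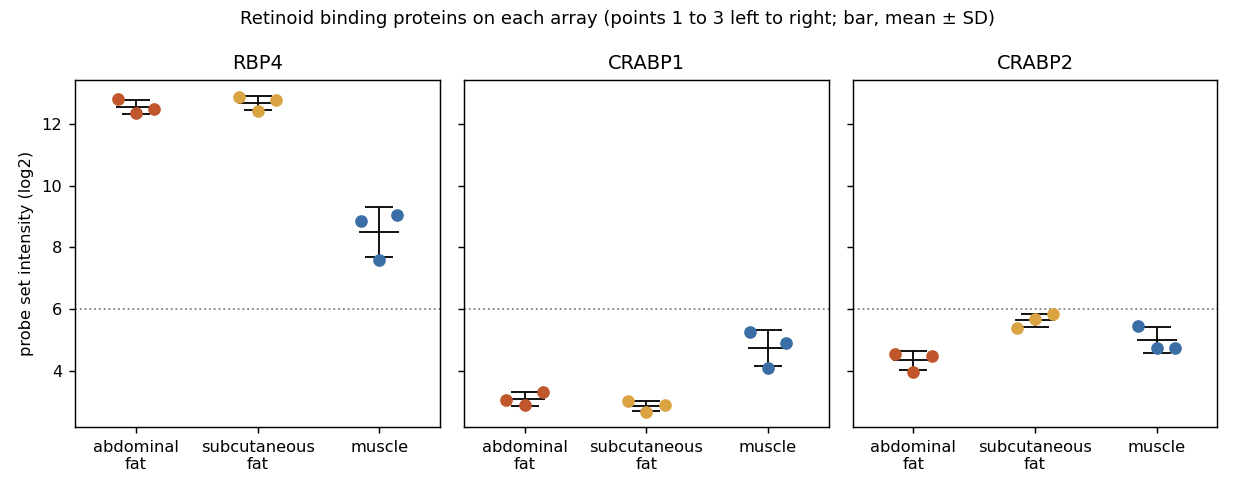
Log2 probe set intensity of RBP4, CRABP1 and CRABP2 (vertical axis) on each of the 9 arrays, by tissue. Points are single arrays, bars are means ± SD (n = 3) and the dotted line marks a log2 value of 6. RBP4 is above the line on all 9 arrays and higher in fat, whereas CRABP1 and CRABP2 are below the line on all 9 arrays.

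RBP4 was high in both fat depots and far lower in muscle. Its log2 intensity was 12.81, 12.36 and 12.47 on the abdominal arrays, 12.88, 12.43 and 12.76 on the subcutaneous arrays, and 8.85, 7.58 and 9.05 on the muscle arrays. The fat arrays lay within a range of 0.53 and none overlapped with muscle, whose 3 arrays were spread over 1.46. The gap between the lowest fat array and the highest muscle array was 3.31. RBP4 averaged 12.55 ± 0.24 in abdominal fat, 12.69 ± 0.23 in subcutaneous fat, against 8.49 ± 0.80 in muscle (SD, n = 3 each).

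Adipose tissue exceeded muscle by 4.12 ± 0.29 for RBP4 (SE; limma adjusted p = 2.47e-06), a 17.4-fold higher intensity with a 95% interval of 11.1 to 27.3. Among the 24016 differences this was rank 25 counted from the highest in adipose tissue, and rank 207 by size in either direction. Of all probe sets tested, 52.6% were called in this comparison at an adjusted p under 0.05, 26.2% higher and 26.4% lower in adipose tissue, and 44.8% had no overlap between arrays. A call alone therefore says little here. Against muscle the difference was 4.05 ± 0.33 in abdominal fat (adjusted p = 9.92e-06) and 4.20 ± 0.33 in subcutaneous fat (adjusted p = 8.01e-06). These 2 differences share the muscle arrays.

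The depots were not told apart by RBP4. Abdominal minus subcutaneous fat was -0.15 ± 0.33 (adjusted p = 0.917), with overlapping arrays. The 95% interval of -0.89 to 0.60 leaves room for a depot difference in either direction, but not for one of the size seen against muscle. In the order of levels, then, muscle stood lowest, and the depots did not differ beyond their spread.

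In muscle RBP4 was lowest on the array where most fat cell genes were lowest. Relative to the mean of the 3 muscle arrays, RBP4 was at 0.36, -0.91 and 0.55 on replicates 1, 2 and 3. Adiponectin, ADIPOQ, a hormone of fat cells, was at 0.21, -0.78 and 0.56, and the lipid droplet protein CIDEC at 0.28, -0.79 and 0.51. Of the 6 measured adipocyte markers, 5 were lowest on muscle replicate 2, and the other, hormone-sensitive lipase LIPE, was lowest on replicate 1 (-0.40, against -0.24 on replicate 2). Over the 6 markers, the summed intensity was 29700 to 30700 in abdominal fat, 27100 to 28300 in subcutaneous fat, against 2980 to 6700 in muscle, and FABP4, a fatty acid carrier of adipocytes, read 12.46, 11.18 and 12.08 on the muscle arrays. Some markers of other cells were also lowest on replicate 2. Among them were CD14 of macrophages (7.12, 5.95 and 6.7) and collagen COL1A1 of fibroblasts (10.36, 9.22 and 10.45). CRABP1 was lowest there too (4.09). Endothelial markers were split: PECAM1 was highest on replicate 2 (7.54, 7.75 and 7.52) and TEK lowest (7.58, 7.2 and 7.84). The part of fat cells or other cells in the muscle signal of RBP4 was not tested. Without muscle replicate 2 the difference of RBP4 between adipose tissue and muscle was 3.67 (adjusted p = 9.9e-07).

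**Figure D2:**
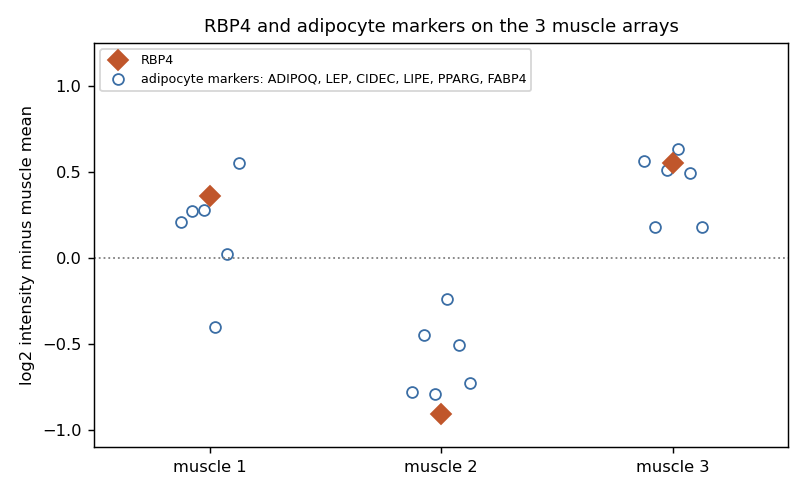
Log2 intensity minus the mean of the muscle arrays (vertical axis) for RBP4 (diamonds) and 6 adipocyte markers (circles) on the 3 muscle arrays. RBP4 and 5 of the 6 markers are lowest on muscle replicate 2, where RBP4 is at -0.91.

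Markers of hepatocytes, the main source of RBP4 in the body, were also measured. Of 8 markers 3 were higher in adipose tissue than in muscle, namely albumin, ALB (1.44), apolipoprotein APOA1 (1.77) and transferrin, TF (3.28). The 9 probe sets of ALB disagreed: the next brightest differed by -0.08 (adjusted p = 0.599), another by 1.51 (adjusted p = 2.76e-05) and a dim one by -0.33 (adjusted p = 0.0468). AHSG, a liver plasma protein, was lower (-0.65) and 4 were not called. Of the uncalled markers, APOH had means of 2.60 in abdominal fat, 2.02 in subcutaneous fat, against 2.03 in muscle, and APOA2 of 4.49, 4.25 and 4.54, all near background. Their summed intensity was 2770 to 3150 in abdominal fat, 2540 to 3590 in subcutaneous fat, against 1170 to 1280 in muscle, and their part in the RBP4 result was not tested. TTR, transthyretin, the plasma partner of RBP4, differed by 0.57 ± 0.50 between adipose tissue and muscle (adjusted p = 0.365).

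The genes whose pattern was most like that of RBP4 over the 9 arrays were LASP1, an actin-binding protein (Pearson r = 0.999), CIDEC (0.997), the secreted matrix protein CCDC80 (0.997), the lipodystrophy gene BSCL2, which encodes seipin of the lipid droplet (0.996), and the RNA-binding protein FMR1 (0.996). These are descriptions over 9 arrays that fall into 2 clusters, fat and muscle. Of 6830 candidate genes with a tissue mean of at least 6, 1330 had an r over 0.9 with RBP4. CIDEC differed by 4.06 between adipose tissue and muscle, close to RBP4 in size, while FMR1 differed by 1.71.

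CRABP1 was the only member called lower in adipose tissue than in muscle in the limma fit, and its signal was near background in every tissue. Its log2 intensity was 3.04, 2.88 and 3.31 on the abdominal arrays, 3.0, 2.67 and 2.87 on the subcutaneous arrays, and 5.24, 4.09 and 4.88 on the muscle arrays. All 6 fat arrays lay below all 3 muscle arrays, with a gap of 0.78. It averaged 3.07 ± 0.22 in abdominal fat, 2.85 ± 0.16 in subcutaneous fat, against 4.74 ± 0.59 in muscle (SD, n = 3 each).

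Adipose tissue minus muscle was -1.77 ± 0.22 for CRABP1 (adjusted p = 0.000107). Abdominal fat minus muscle was -1.66 ± 0.26 (adjusted p = 0.000541), and subcutaneous fat minus muscle was -1.89 ± 0.26 (adjusted p = 0.000233). Between abdominal fat and muscle 46.6% of probe sets were called, 23.5% higher and 23.1% lower, and 54.9% had no overlap. Between subcutaneous fat and muscle 47% were called, 24.6% higher and 22.4% lower, and 54.3% had no overlap, so these calls of CRABP1 are not unusual. The size is not exact for a gene this dim: with 32 added to each intensity before the log2, adipose tissue minus muscle was -0.58 (adjusted p = 0.00217). The depots differed by 0.23 ± 0.26 (abdominal minus subcutaneous; adjusted p = 0.781; 95% interval -0.35 to 0.81) and their arrays overlapped. In the order of levels muscle stood highest, and the depots did not differ beyond their spread.

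Among the genes most like CRABP1 were COMP, a cartilage and tendon matrix protein (r = 0.986), the myogenic factor MYOG (0.985), the matrix protein THBS4 (0.980) and the ketone body enzyme BDH1 (0.975), over 9 arrays in the same 2 clusters. Of 6831 candidates 400 had an r over 0.9. MYOG, a regulator of muscle differentiation, averaged 4.66 in abdominal fat, 4.59 in subcutaneous fat, against 7.29 in muscle. Between the tissues, skeletal muscle markers moved with CRABP1. Their summed intensity was 141 to 1350 in abdominal fat, 522 to 609 in subcutaneous fat, against 47900 to 52100 in muscle. Within abdominal fat the muscle actin ACTA1 was at 8.96, 10.07 and 6.41 and the muscle myosin MYH1 at 6.37, 5.51 and 3.97. CRABP1 read 3.04, 2.88 and 3.31 there, a small spread near background. The part of muscle cells in the CRABP1 difference was not tested.

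CRABP2 separated the fat depots, although it too was near background. Its log2 intensity was 4.55, 3.97 and 4.48 on the abdominal arrays, 5.39, 5.68 and 5.83 on the subcutaneous arrays, and 5.46, 4.73 and 4.73 on the muscle arrays. Every abdominal array was below every subcutaneous array, with a gap of 0.83, and muscle lay between the depots, with its replicate 1 inside the subcutaneous range. CRABP2 averaged 4.33 ± 0.32 in abdominal fat, 5.63 ± 0.22 in subcutaneous fat, against 4.98 ± 0.42 in muscle (SD, n = 3 each).

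Abdominal minus subcutaneous fat was -1.30 ± 0.23 for CRABP2 (adjusted p = 0.0354), with a 95% interval of -1.82 to -0.77. Between the depots 1.31% of probe sets were called, 0.641% higher and 0.666% lower in abdominal fat, and 23.6% had no overlap between arrays. CRABP2 was rank 214 by size in either direction among the 24016 depot differences, and rank 83 counted from the lowest in abdominal fat. This call was lost without any single one of the 6 adipose arrays, abdominal replicate 1, 2 or 3 (adjusted p = 0.0711, 0.11 and 0.0942) or subcutaneous replicate 1, 2 or 3 (adjusted p = 0.0774, 0.0994 and 0.111), while the difference stayed between -1.42 and -1.12 with any array left out. The size is not exact at this level of signal, and with 32 added to each intensity the difference was -0.64 (adjusted p = 0.0583).

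Against muscle CRABP2 was -0.64 ± 0.23 in abdominal fat (adjusted p = 0.0467) and 0.66 ± 0.23 in subcutaneous fat (adjusted p = 0.0426), 2 differences that share the muscle arrays. With both depots averaged these cancelled, and adipose tissue minus muscle was 0.01 ± 0.20 (adjusted p = 0.98; 95% interval -0.45 to 0.46). Of the 17 alternatives tried for each depot against muscle, 12 ended the call in abdominal fat and 11 in subcutaneous fat. Both counts include the same fit read at an adjusted p under 0.01, which neither call could pass. Leaving out 1 array gave adjusted p-values up to 0.162 for abdominal fat, where the call held without muscle replicate 2 (0.0438) and muscle replicate 3 (0.0367). It gave up to 0.132 for subcutaneous fat, where the call held without muscle replicate 1 (0.0083), abdominal replicate 2 (0.0347) and subcutaneous replicate 1 (0.0432). The order of CRABP2 levels was thus abdominal fat, muscle and subcutaneous fat from low to high, and muscle was not firmly separated from either depot.

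**Figure D3:**
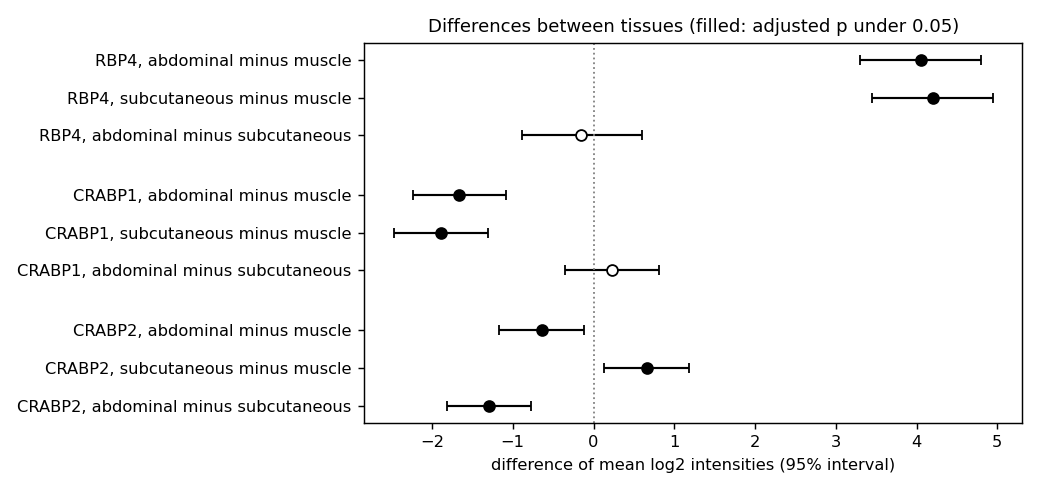
Differences of mean log2 intensity between tissues (horizontal axis) with 95% intervals for the 3 genes. Filled points have a limma adjusted p under 0.05 and open points do not. RBP4 is at 4.05 and 4.20 against muscle and -0.15 between the depots, and CRABP2 is at -1.30 between the depots.

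Markers of cells that could carry CRABP2 were compared between the depots. Of 10 fibroblast and preadipocyte markers none was called between abdominal and subcutaneous fat by limma, with a median difference of -0.16, and their summed intensity was 25900 to 33500 in abdominal and 29500 to 32800 in subcutaneous fat. Collagen COL1A1 was at -0.82 (adjusted p = 0.31). The preadipocyte factor DLK1 read 5.68, 10.55 and 11.08 in abdominal fat and 5.28, 5.10 and 5.01 in subcutaneous fat, a difference of 3.97 that was not called (adjusted p = 0.123). None of 6 epithelial and mammary markers was called (median -0.13, summed intensity 419 to 516 in abdominal and 449 to 713 in subcutaneous fat), and none of 4 measured mesothelial markers (median 0.78, summed intensity 136 to 566 and 149 to 206 in the same order). None of 4 measured macrophage markers was called (median 0.01). Of 5 endothelial markers 1 was called, TEK, a receptor of vessel cells, at 10.20, 10.57 and 10.38 in abdominal and 9.15, 9.41 and 9.31 in subcutaneous fat, a difference of 1.09 ± 0.18 (adjusted p = 0.0293). The summed endothelial intensity was 3810 to 4410 in abdominal and 2780 to 2860 in subcutaneous fat, with no overlap, the opposite direction to CRABP2. The part of these cells in the CRABP2 difference was not tested.

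CRABP2 was most like the chemokine CXCL14 over the 9 arrays (r = 0.936), followed by the proteasome subunit PSMB1 (0.936), C7H19orf25 (0.932), the calcium-binding protein S100A14 (0.920) and DAD1, a subunit of the oligosaccharyltransferase (0.907). Only 6 of 6831 candidates had an r over 0.9, against 1330 for RBP4. CXCL14 had means of 6.55 in abdominal fat, 10.75 in subcutaneous fat, against 8.53 in muscle, the same order as CRABP2. It was picked by its r with CRABP2 on these arrays, so the shared order is no separate result.

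Each tissue had 1 array with a title that begins with 5. RBP4 and CRABP1 were lowest on that array in each of the 3 tissues, at 12.36 and 2.88 in abdominal fat, 12.43 and 2.67 in subcutaneous fat, and 7.58 and 4.09 in muscle. CRABP2 was lowest on it in abdominal fat (3.97) but not in subcutaneous fat (5.68), and in muscle it read 4.73, as on replicate 3. Other genes were lowest on that array in all 3 tissues too. Among them were lipoprotein lipase LPL (12.68, 11.72 and 11.41) and the receptor NR2F1 (7.29, 7.04 and 4.04). LIPE was instead highest on it in both depots (12.3 and 12.16). The share of all genes with this pattern was not counted, so it cannot be called particular to the members.

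The other genes of vitamin A handling were read from lists of 92 genes in all, of which 57 were measured. Between adipose tissue and muscle 32 of the 57 were called higher and 7 lower, with a median difference of 0.57. Among all 9155 genes 61.4% were called, 32% higher and 29.5% lower, with a median of -0.02. Between abdominal fat and muscle 27 were higher and 7 lower, against 56.1% of all genes called, 29% higher and 27.1% lower. Between subcutaneous fat and muscle 27 were higher and 8 lower, against 56.2% of all genes called, 30.4% higher and 25.9% lower. The 57 include LIPE, PPARG and FABP4, which also serve as adipocyte markers here. Their lists were chosen with earlier results of these data known. Markers of other cell types moved with the retinoid genes. Besides the adipocyte markers, 4 of 5 endothelial markers (median 2.22), all 4 measured macrophage markers (median 2.72) and 7 of 10 fibroblast and preadipocyte markers (median 1.02) were higher in adipose tissue. Their summed intensities did not overlap between fat and muscle, at 3810 to 4410, 2780 to 2860 and 575 to 711 for endothelial, 1500 to 3940, 1450 to 3270 and 273 to 510 for macrophage, and 25900 to 33500, 29500 to 32800 and 9760 to 15000 for fibroblast markers in abdominal fat, subcutaneous fat and muscle. Their part in the retinoid genes was not tested. For adipose tissue minus muscle, with each array centred on its median, which moved the median of all probe sets from -0.06 to -0.18, 26 were higher and 13 lower, so that 66.7% of calls were higher in place of 82.1%.

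**Figure D4:**
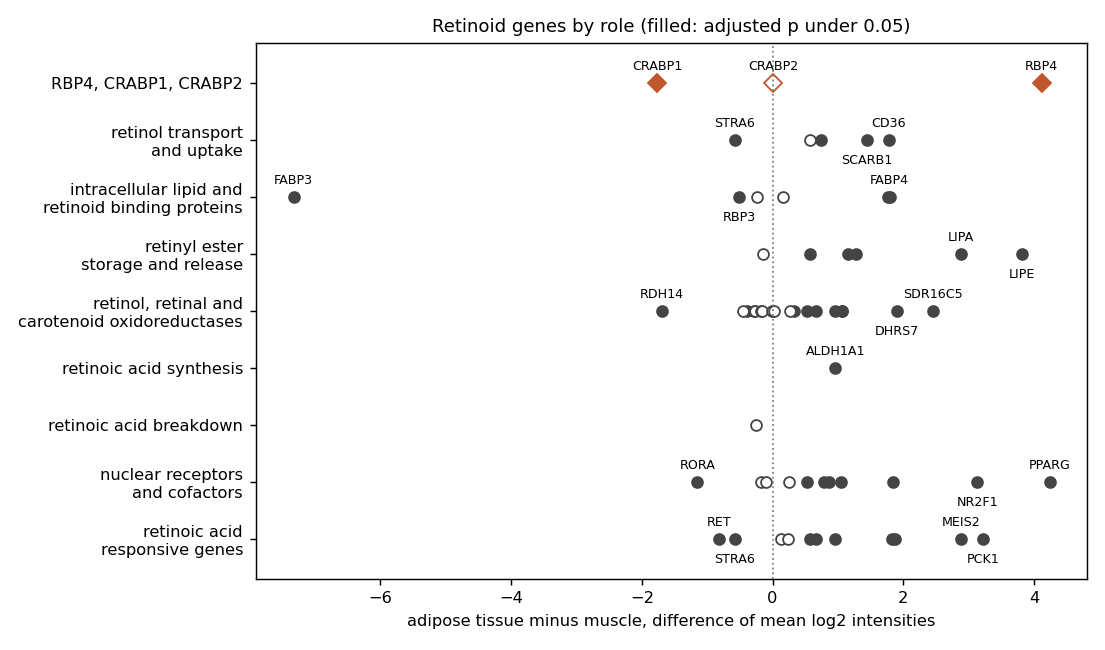
Adipose tissue minus muscle, as a difference of mean log2 intensities (horizontal axis), for RBP4, CRABP1 and CRABP2 (diamonds) and the other measured retinoid genes (circles) by role. Filled symbols have a limma adjusted p under 0.05. RBP4 (4.12) and PPARG (4.24) lie at the right and FABP3 (-7.33) at the far left.

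In transport and uptake, 3 of 5 measured genes were higher and 1 lower in adipose tissue. For this and the other roles below, the share among all 9155 genes was 32% higher and 29.5% lower. CD36, a fatty acid and lipid uptake receptor, was 1.78 ± 0.13 higher (adjusted p = 2.44e-06) and the lipoprotein receptor SCARB1 1.44 ± 0.14 higher. Lipoprotein lipase, LPL, which can release retinol from circulating esters, was 0.74 ± 0.21 higher, which did not pass once muscle replicate 2 was left out (0.55, adjusted p = 0.0728). STRA6, the membrane receptor for RBP4, was lower by its brighter probe set (-0.58 ± 0.16, adjusted p = 0.0146), with means of 5.54, 5.58 and 6.14 in abdominal fat, subcutaneous fat and muscle. The other STRA6 probe set differed by -0.02 (adjusted p = 0.956), and the mean of both was not called (-0.30, adjusted p = 0.0785).

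The intracellular binding proteins of the CRABP family and other retinoid binders were split, with 2 of 6 higher and 2 lower. The adipocyte fatty acid binding protein FABP4 was 1.79 ± 0.23 higher (adjusted p = 0.000121) by its brighter probe set and 3.52 higher by the other. FABP5, which can also bind retinoic acid, was 1.77 ± 0.13 higher (adjusted p = 3.67e-06). The heart and muscle form FABP3 differed by -7.33 ± 0.22 (adjusted p = 1.13e-08), at 5.93, 6.84 and 5.97 in abdominal fat, 4.99, 5.68 and 5.34 in subcutaneous fat, and 13.17, 13.07 and 13.13 in muscle. RBP3, a retinoid carrier of the eye, differed by -0.51 with means under 6 in every tissue, by -0.22 with 32 added to each intensity, and by -0.52, -0.19 and -0.04 on its other 3 probe sets.

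Genes for storing and releasing retinyl esters were higher in 5 of 6 cases and lower in none. LIPE was 3.82 ± 0.24 higher (adjusted p = 1.09e-06) by its brightest probe set, while the other 3 differed by 3.8, 0.47 and 0.02 (adjusted p = 0.933 for the last). The lysosomal lipase LIPA was 2.88 ± 0.25 higher and the triglyceride lipase PNPLA2 1.27 ± 0.11 higher. These lipases also act on other lipids. LRAT, the enzyme that esterifies retinol, was called as well (0.57 ± 0.21, adjusted p = 0.0424), with means of 3.83, 3.83 and 3.26, near background throughout.

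Of 18 oxidoreductases for retinol, retinal and carotenoids 8 were higher and 2 lower. Among all 9155 genes 61.4% were called, so the number of calls here is not unusual. The retinol dehydrogenase SDR16C5 was 2.46 ± 0.51 higher (adjusted p = 0.00256) with a wide spread in fat, 6.28, 6.43 and 8.19 in abdominal and 8.02, 5.75 and 6.63 in subcutaneous fat, against 4.61, 4.38 and 4.27 in muscle, near background. With 32 added to each intensity it was 1.53 (adjusted p = 0.0265). DHRS7 was 1.90 ± 0.24 higher. For the carotenoid-cleaving enzyme BCO2 the brightest probe set read 1.06 ± 0.16 higher, the other 2, near background, differed by 0.05 and -0.42, and the mean of all 3 was not called (0.23, adjusted p = 0.103). RDH14, a retinol dehydrogenase, differed by -1.69 ± 0.14 (adjusted p = 5.61e-06), and BCO1, which cleaves beta-carotene, by -0.39 ± 0.12 with means under 5 in all 3 tissues, a call lost without muscle replicate 2 (adjusted p = 0.0631) and a size of -0.16 with 32 added. ALDH1A1, the measured enzyme of retinoic acid synthesis, was 0.96 ± 0.13 higher (adjusted p = 0.000211), and CYP2S1, the measured enzyme of its breakdown, was not called (-0.25 ± 0.16).

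Among nuclear receptors and cofactors 7 of 11 were higher and 1 lower. PPARG, the adipocyte receptor that pairs with the retinoid X receptors, was 4.24 ± 0.20 higher (adjusted p = 2.29e-07), the orphan receptor NR2F1 3.13 ± 0.30 higher and NR2F2 1.85 ± 0.24 higher. NR2F1 was near background in muscle (mean 4.59), and its difference was 2.11 with 32 added to each intensity. A dim probe set of NR2F2 differed by -0.20 (adjusted p = 0.244). RORA was lower (-1.15 ± 0.12), with means of 5.00 in abdominal fat, 5.50 in subcutaneous fat, against 6.40 in muscle, and differed by -0.73 with 32 added. The retinoic acid receptor RARA, to which CRABP2 delivers its ligand, was not called by its brighter probe set (0.25 ± 0.13, adjusted p = 0.143) and was called higher by the other (0.39, adjusted p = 0.0201), with means by the brighter one of 8.21, 8.23 and 7.97 in abdominal fat, subcutaneous fat and muscle.

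Of 11 genes known to respond to retinoic acid 7 were higher and 2 lower. The gluconeogenic enzyme PCK1 was 3.22 ± 0.55 higher, the homeobox gene MEIS2 2.89 ± 0.33 higher by its brighter probe set (0.40 by the other, adjusted p = 0.107) and chemerin, RARRES2, 1.88 ± 0.18 higher. The receptor kinase RET was lower (-0.82 ± 0.14), as was STRA6, which is itself induced by retinoic acid. With 32 added to each intensity, MEIS2 differed by 2.19, RET by -0.54 and STRA6 by -0.38, all still called. The other, dimmer STRA6 probe set differed by -0.02 in the main fit (limma adjusted p = 0.956). Many other signals act on these genes too.

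Between the depots 2 of the 57 retinoid genes were called, both higher in abdominal fat, which is the opposite direction to CRABP2; among all genes 1.5% were called, 0.808% higher and 0.688% lower. TGM2, the transglutaminase induced by retinoic acid, was at 8.45, 9.11 and 9.08 in abdominal and 6.73, 6.83 and 7.10 in subcutaneous fat, a difference of 1.99 ± 0.23 (adjusted p = 0.00754) with no overlap. ADH6, an alcohol dehydrogenase, was at 6.49, 5.49 and 6.48 in abdominal and 4.24, 3.97 and 4.22 in subcutaneous fat, a difference of 2.01 ± 0.28 (adjusted p = 0.0195) that was lost without abdominal replicate 1 (0.0507) or 3 (0.0741) or subcutaneous replicate 1 (0.058), 2 (0.0535) or 3 (0.0544). With 32 added to each intensity ADH6 differed by 1.07 (adjusted p = 0.0431). The endothelial marker TEK was higher in abdominal fat as well (1.09, adjusted p = 0.0293). None of the 4 measured mesothelial markers was called (median 0.78). Among the abdominal arrays the mesothelial markers were lowest on replicate 2, as ADH6 was, and TEK was highest there (10.57). MSLN, for example, read 6.32, 4.39 and 6.41, and UPK3B 7.17, 5.53 and 6.33. The part of these cells in both differences was not tested. RXRA, a retinoid X receptor, was at -0.89 ± 0.21 (adjusted p = 0.0761) and FABP7, a brain fatty acid binding protein with means of 5.03 in abdominal and 6.05 in subcutaneous fat, at -1.02 ± 0.23 (adjusted p = 0.0691), and neither was called.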

How the data were processed

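Per the labels, biotin-labelled cRNA was hybridised to 1-colour Affymetrix bovine arrays, 3 per tissue. The submitters' processing notes name RMA, with no version. The deposited intensities were on a linear scale, from 3.06 to 17450.5, so log2 was taken. The 112 control probe sets were left out. Probe sets were named from the array annotation, updated through gene identifiers. Where a gene had several, the probe set with the highest mean stood for it.

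With limma 3.58.1 (R 4.3.3), the 3 tissue means were modelled jointly over 9 arrays. Two-sided p-values were adjusted by Benjamini-Hochberg over 24016 probe sets, and those under 0.05 were called. Standard errors (SE) are moderated. The code of the fit was tried on simulated data with independent noise and few changed probe sets. That setting is unlike these data, so it does not bear on the calls here. Likeness was Pearson's r over the arrays, for genes with a tissue mean of at least 6. Named genes were the members, up to 3 passing genes per list and direction with the largest difference, and the 5 genes most like each member, of which 1 for CRABP1 is not reported here; others (LRAT, RARA, RXRA, TTR, FABP7, CYP2S1 and markers) were named after their values were seen. The members and lists were chosen with earlier results of these data known.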

Additional observations from a re-analysis of the deposited data

Results flagged for a closer look

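The difference of CRABP2 from muscle differed between the depots in the limma fit of all 9 arrays. Abdominal minus subcutaneous fat, which is the test of that difference, was -1.3 (limma adjusted p = 0.0354), with abdominal fat at -0.64 and subcutaneous fat at 0.66 relative to muscle. Of 17 alternatives 9 ended this call, among them leaving out any of the 6 adipose arrays, so it is not firm. The 9 include the same fit read at 0.01, which a call at 0.0354 could not pass.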

How the results depend on the processing

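RBP4 and CRABP1 kept their direction and side of the threshold in each comparison with muscle under every alternative run, including centring, quantile normalization, array weights, a trended prior and each array left out. RBP4 ranged from 3.67 to 4.40 and CRABP1 from -2.10 to -1.52 for adipose tissue minus muscle with 1 array left out, and CRABP1 was -0.58 with 32 added to each intensity. The uncalled RBP4 difference between the depots was 0.047 with the leading title number as a replicate block, the only change of sign for RBP4. CRABP2 was less stable, and the cause was not tested. Its call between the depots was lost with 32 added (-0.64), with the block (-1.38, adjusted p = 0.102) and at an adjusted p under 0.01 (-1.30), and the value ran from -1.42 to -1.12 with 1 array left out. Abdominal fat minus muscle was lost with 32 added (-0.29), quantile normalization (-0.585), the block (-0.73), only the arrays of both tissues (-0.64) and the stricter threshold (-0.64), and ran from -0.76 to -0.40 with 1 array left out. Subcutaneous fat minus muscle was lost with centred arrays (0.53), array weights (0.44), the block (0.66), only the arrays of both tissues (0.66) and the stricter threshold (0.66), and ran from 0.53 to 0.90. Adipose tissue minus muscle, never called for CRABP2, was -0.11 with centred arrays, -0.21 with array weights and -0.035 with the block, and ran from -0.11 to 0.25. A filter on probe sets over 6 on at least 3 arrays left neither CRABP1 nor CRABP2 to test.

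The 314 calls between the depots became 1034 with array weights, 118 with the block, 36 at the stricter threshold and 57 to 491 with 1 array left out. The 2 retinoid genes called there became 7 with array weights, 1 with the filter on dim probe sets or at the stricter threshold, and 1 to 4 with 1 array left out. Of all calls between adipose tissue and muscle 49.8% were higher in fat, against 39.2% with centred arrays. The labels do not say what the title numbers mark. Deviations from the tissue means correlated at 0.043 to 0.362 over the 7 same-number pairs and -0.324 to 0.17 over the 20 others. Same-number pairs of abdominal and subcutaneous fat were at 0.33 and 0.362, and 1 of the 3 muscle and subcutaneous pairs exceeded 0.1. In 13 of 14 cases an array correlated best with its own number. These cases count each of the 7 pairs from both ends, with only 3 arrays per tissue to choose from, so they are not independent. The main fit took the arrays as independent. Near-background signal limits what can be said of CRABP1 and CRABP2.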

Other observations

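The protein-coding genes next to each member on the RefSeq map of the cattle assembly ARS-UCD2.0 were also read, 3 on each side. This rule was set after the members' values were seen. CEP55, FFAR4 and LOC112444479 near RBP4 and ACSBG1, IREB2 and HYKK near CRABP1 were not measured, and FFAR4 and IREB2 are directly adjacent. Among all 9155 genes 61.4% were called between adipose tissue and muscle and 1.5% between the depots. Near RBP4, the membrane repair protein MYOF, 3 genes away, exceeded muscle in adipose tissue by 2.41 ± 0.27 (SE; limma adjusted p = 4.33e-05), the cone phosphodiesterase PDE6C was near background with a difference of 0.44 (adjusted p = 0.0128), and FRA10AC1 was lower (-0.63 ± 0.10, adjusted p = 0.000373). Near CRABP1, the chaperone DNAJA4 was lower in adipose tissue (-3.46 ± 0.19, adjusted p = 5.67e-07), as was the proteasome subunit PSMA4 (-0.83 ± 0.10, adjusted p = 9.82e-05), while the adjacent gene SKIC8 differed by 0.39 ± 0.15 (adjusted p = 0.0528). Near CRABP2, itself not called between adipose tissue and muscle, MRPL24 (-2.06), METTL25B (-0.71), NES (-1.70) and HAPLN2 (-0.70) were lower in adipose tissue, ISG20L2 was higher (0.35) and BCAN was not called (-0.33, adjusted p = 0.0513). The intermediate filament gene NES, the next gene along, differed by 0.95 ± 0.35 between abdominal and subcutaneous fat (adjusted p = 0.236), opposite in sign to CRABP2, and no measured neighbour of a member was called between the depots by limma.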
